A study of Mus musculus with 24 samples.

Results

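The thyroid hormone axis of the pressure-loaded mouse heart was described through 6 genes: Dio2 and Dio3, the deiodinases that activate and inactivate thyroid hormone, Thra and Thrb, its nuclear receptors, Slc16a10, a membrane carrier, and Thrsp, a thyroid hormone responsive gene. These are the rows of the count table with those 6 names, of 25229 genes in the table, and all 6 were among the 13571 genes that passed the filter on low counts. The 24 libraries hold poly-A RNA from left ventricle with septum, taken from male C57BL/6 mice. Transverse aortic constriction (TAC), a band around the aorta that puts the heart under pressure load, or a sham operation came first, followed by 1 week of recovery. The mice then breathed benzene, a volatile pollutant, at 50 ppm or filtered air, on 5 days a week for 6 hours a day over 6 weeks. The groups are TAC/Benzene, TAC/Air, Sham/Benzene and Sham/Air, with 6 libraries each. No source used here gives the age of the mice, and no allele or transgene is named for any group. The labels do not say whether each library is 1 mouse, so the spread and the p-values given here describe these libraries.

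The thyroid gland secretes mostly thyroxine (T4), a prohormone. Type 2 deiodinase (Dio2) removes an outer-ring iodine inside the cell and gives the active hormone T3, while type 3 deiodinase (Dio3) removes an inner-ring iodine and ends the activity of T4 and T3. T3 binds receptors that sit on DNA with a retinoid X receptor partner. In rodent heart T3 is known to raise Myh6 and Atp2a2 and to lower Myh7, and its lack gives the opposite pattern.

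The starts of the deiodinase genes are shown because these were the genes that differed most between TAC and sham. Each window runs from 250 bases before to 50 bases after a RefSeq start in build GRCm38.p6, 5′ to 3′ on the gene's strand. Capitals mark TGACGTCA, the cAMP response element sequence, and TATAAA, the TATA box sequence. The Dio2 window is chr12:90738989-90739288 on the minus strand, and the Dio3 window is chr12:110278980-110279279 on the plus strand.
Dio2: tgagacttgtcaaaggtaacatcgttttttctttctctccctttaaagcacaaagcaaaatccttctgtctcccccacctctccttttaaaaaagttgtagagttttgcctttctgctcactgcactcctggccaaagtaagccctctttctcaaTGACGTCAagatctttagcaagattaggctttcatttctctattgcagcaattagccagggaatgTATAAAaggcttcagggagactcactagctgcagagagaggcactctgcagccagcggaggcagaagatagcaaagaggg
Dio3: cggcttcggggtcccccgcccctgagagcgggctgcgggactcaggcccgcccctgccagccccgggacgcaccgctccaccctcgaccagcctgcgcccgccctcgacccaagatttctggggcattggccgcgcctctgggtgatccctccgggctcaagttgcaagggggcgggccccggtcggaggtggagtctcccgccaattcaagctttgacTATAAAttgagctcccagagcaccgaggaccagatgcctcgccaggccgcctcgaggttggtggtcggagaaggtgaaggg
TGACGTCA starts 95 bases before the start of Dio2 and is not in the Dio3 window. Searched on both strands, it is in 1.79% of 32851 promoter windows of 300 bases. TATAAA, searched on the gene's strand, lies 30 bases before the start of Dio2 and 31 bases before that of Dio3, and 8.32% of windows hold it. The core motif of nuclear receptors, AGGTCA, was searched on both strands and is in 16.3% of windows. It is in neither deiodinase window, nor in those of Slc16a10 and Thrsp, and among the promoter windows of these genes it is in 1 of the 2 of Thrb. The direct repeat of that core motif with a spacer of 4 bases, which contains it in both arms, is in 0.0152% of windows and in none of these. No promoter of Thra is shown.

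Library totals ranged over 10016860 to 13724100 counts in TAC/Benzene, 10479981 to 13581729 in TAC/Air, 9396445 to 14632231 in Sham/Benzene and 4170660 to 12718494 in Sham/Air. The lowest total belongs to Sham/Air replicate 1, which also stood apart over all genes: its median Spearman correlation with the other libraries was 0.866, against 0.977 or more for each of the other libraries. Counts also varied with the GC content of the transcript, differently by library. The rank correlation over 10753 genes between GC content and a library's deviation from the mean of all libraries ran over -0.21 to 0.56 in TAC/Benzene, -0.53 to 0.54 in TAC/Air, -0.49 to 0.59 in Sham/Benzene and -0.75 to 0.58 in Sham/Air. In both sham groups it was negative in replicates 1 to 3 and positive in replicates 4 to 6. In TAC/Air it was positive in replicates 1 to 3 and negative in replicates 4 to 6. In TAC/Benzene only replicates 4 and 6 were negative, at -0.01 and -0.21. Genes whose values moved with this trend are given also after offsets for each library's GC and length trend. The 6 genes were chosen by their measured levels and fold changes in these libraries, so their values are given as a description, with standard errors and without p-values. Levels are in CPM, counts divided by the library total after scaling by the trimmed mean of M-values, and differences are log2 fold changes from edgeR with their standard errors. The 2 TAC comparisons, in air and in benzene, share no library. All 24 libraries were fitted together with a shared estimate of the spread, so the standard errors and calls of these comparisons are not independent.

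**Figure D1:**
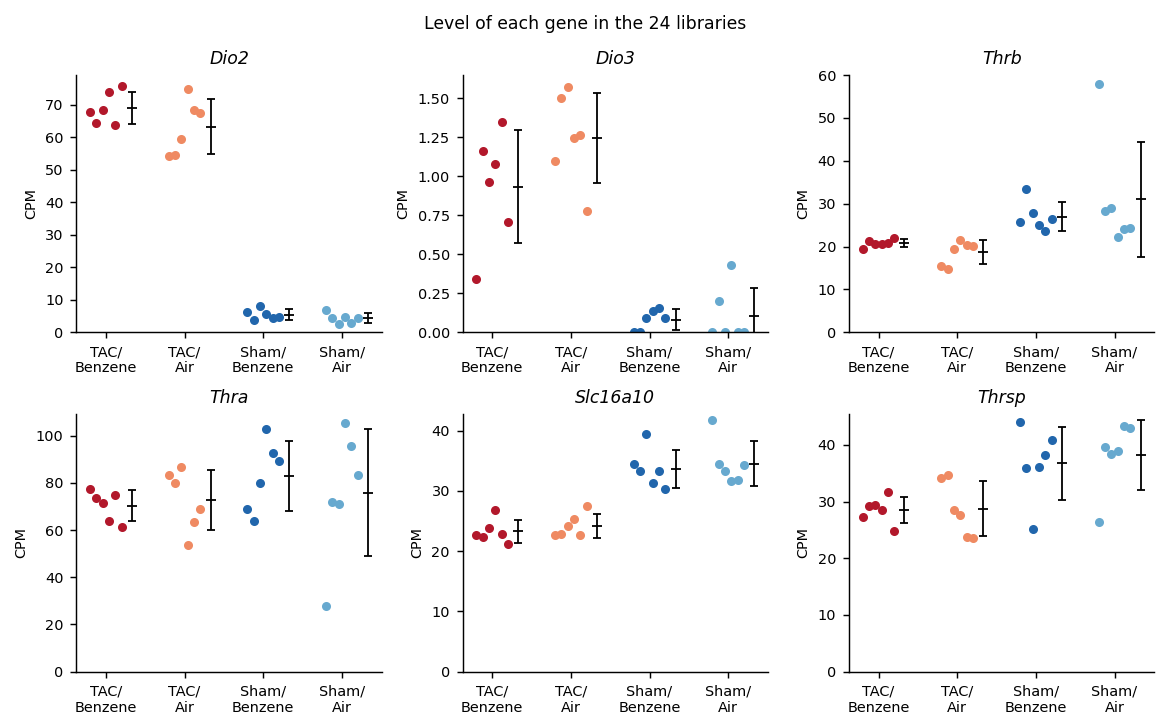
Level of each of the 6 genes in the 24 libraries, in CPM on a linear axis that starts at 0 and differs between genes. Points are libraries, the black marks are the mean and SD, and the groups run from TAC/Benzene to Sham/Air. Within each exposure the TAC libraries sit apart from the sham libraries for Dio2, Dio3, Thrb and Slc16a10, and overlap them for Thra and Thrsp.

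Dio2, the activating deiodinase, was the member with the largest difference. In TAC/Benzene its level ran over 63.6 to 75.6 CPM with a median of 68.1 CPM. In TAC/Air it ran over 54.4 to 75.0 CPM with a median of 63.5 CPM. Sham/Benzene libraries held 3.94 to 8.23 CPM, with a median of 5.11 CPM, and Sham/Air libraries held 2.44 to 6.82 CPM, with a median of 4.39 CPM. Every TAC library was thus far above every sham library, with 688 or more Dio2 counts in each TAC library and 89 or fewer in each sham library. The mean was 69.0 ± 4.89 CPM in TAC/Benzene and 5.48 ± 1.56 CPM in Sham/Benzene (SD, n = 6 each), a log2 fold change of 3.65 ± 0.17 (SE). In air the mean was 63.2 ± 8.43 CPM after TAC and 4.29 ± 1.55 CPM after sham (SD, n = 6 each), a log2 fold change of 3.93 ± 0.18 (SE). The transcript annotated in GENCODE shares 100 exon bases with Gm26512, a gene model on the other strand.

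Per kilobase of exon, the order of the levels changed between the operations. In TAC/Benzene the mean level was 22.3 CPM per kb for Thra, 22.3 for Thrsp, 11.9 for Dio2, 3.54 for Slc16a10, 3.09 for Thrb and 0.460 for Dio3. In Sham/Benzene it was 26.2 CPM per kb for Thra, 28.8 for Thrsp, 0.942 for Dio2, 5.13 for Slc16a10, 4.01 for Thrb and 0.0397 for Dio3. Dio2 was therefore above Thrb and Slc16a10 per length in TAC hearts and below both in sham hearts, in air as in benzene. The air means per kb for Dio2, Slc16a10 and Thrb were 10.9, 3.68 and 2.77 in TAC/Air, and 0.738, 5.26 and 4.60 in Sham/Air. The level of Dio2 per length was 3.84 times that of Thrb in TAC/Benzene, 3.93 times in TAC/Air, 0.235 times in Sham/Benzene and 0.160 times in Sham/Air.

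Dio3, the inactivating deiodinase, was also higher in TAC hearts, but at a level close to the detection limit. The 6 TAC/Benzene libraries held 4, 16, 11, 11, 16 and 8 counts, and the 6 TAC/Air libraries held 14, 19, 22, 16, 14 and 10. The 6 Sham/Benzene libraries held 0, 0, 1, 2, 2 and 1 counts, and the 6 Sham/Air libraries held 0, 2, 0, 5, 0 and 0. The groups did not overlap between TAC and sham, on counts or on CPM, in air or in benzene. Summed over 6 libraries there were 66 counts in TAC/Benzene, 95 in TAC/Air, 6 in Sham/Benzene and 7 in Sham/Air. The mean was 0.933 ± 0.360 CPM in TAC/Benzene and 0.0807 ± 0.0674 CPM in Sham/Benzene, and it was 1.24 ± 0.286 CPM in TAC/Air and 0.105 ± 0.178 CPM in Sham/Air (SD, n = 6 each). The fitted log2 fold change was 3.26 ± 0.54 in benzene and 3.10 ± 0.52 in air (SE). At these counts the fitted value depends on single libraries: without Sham/Air replicate 4, which holds 5 of the 7 Sham/Air counts, the value in air was 4.34. Dio3 met the filter of 0.873 CPM in 4 TAC/Benzene and 5 TAC/Air libraries and in none of the sham libraries, so it entered the fit through the groups in which it is high. Dio1, the type 1 deiodinase of liver, kidney and thyroid, had 0 counts in all 24 libraries, which allows a level of up to 0.0113 CPM over their summed totals (3 counts, counting error only).

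**Figure D2:**
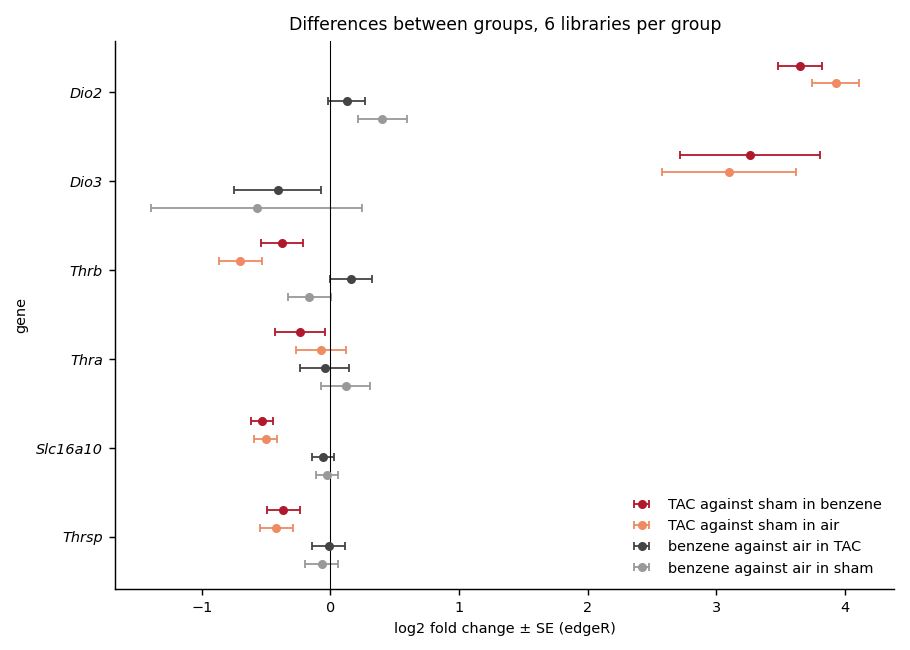
Log2 fold change of each of the 6 genes in each comparison, with the standard error as the bar and 6 libraries per group. Dio2 and Dio3 lie at 3 or above in both TAC comparisons, and Thrb, Slc16a10 and Thrsp lie below 0 there. The benzene values of Dio2 and Dio3 lie between -0.58 and 0.40.

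Dio2 and Dio3 were the 2 of 6 members whose TAC libraries all lay above the sham libraries of the same exposure, and Thrb and Slc16a10 were the 2 of 6 whose TAC libraries all lay below them. Across exposures Dio3 overlapped, with 0.340 CPM in TAC/Benzene replicate 1 and 0.429 CPM in Sham/Air replicate 4. In air, 5.78% of the 13571 tested genes were entirely higher and 3.71% entirely lower in TAC. In benzene these shares were 7.62% and 6.31%. Since the members were picked with their values known, nothing is read from their counts against these shares.

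The genes around Dio3 were measured alongside it, from the imprinted Dlk1-Dio3 domain, a cluster of paternally expressed coding genes and maternally expressed RNAs. Dio3os, a non-coding RNA read divergently from the Dio3 start, had 0.927 to 1.51 CPM in TAC/Benzene, against 0.0951 to 0.343 CPM in Sham/Benzene. In air it had 0.713 to 1.95 CPM after TAC, against 0 to 0.429 CPM after sham. Its fitted log2 fold change was 2.40 ± 0.32 in benzene and 2.43 ± 0.33 in air (SE). Like Dio3 it was below the filter of 0.873 CPM in every sham library and entered the fit through the TAC groups, so no p is given for it, although it is among the list genes counted as called. Rian, a non-coding RNA of the domain, rose with TAC in air in edgeR's quasi-likelihood test (log2 fold change 0.71 ± 0.18, adjusted p = 0.00625, Benjamini-Hochberg over all genes tested), and had a log2 fold change of -0.06 in benzene (adjusted p = 0.902). Meg3, another of its RNAs, had log2 fold changes of -0.14 in benzene (adjusted p = 0.705) and 0.38 in air (adjusted p = 0.192). Of the 7 listed genes of the domain other than Dio3, 3 were tested, and Dlk1 was not among them. No annotated exon of another gene overlaps that of Dio3.

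Thrb, the beta receptor, was lower in TAC hearts. Its level ran over 19.4 to 22.0 CPM in TAC/Benzene (median 20.8) and 14.9 to 21.6 CPM in TAC/Air (median 19.8). It ran over 23.7 to 33.4 CPM in Sham/Benzene (median 26.1) and 22.1 to 58.0 CPM in Sham/Air (median 26.3). No TAC library reached a sham library of the same exposure, and in air the margin was small, with 21.6 CPM as the highest TAC/Air value and 22.1 CPM as the lowest Sham/Air value. The mean was 20.8 ± 0.856 CPM in TAC/Benzene and 27.0 ± 3.43 CPM in Sham/Benzene (SD, n = 6 each), a log2 fold change of -0.38 ± 0.17 (SE). In air the mean was 18.6 ± 2.80 CPM after TAC and 31.0 ± 13.5 CPM after sham (SD, n = 6 each), a log2 fold change of -0.70 ± 0.17 (SE). The highest value, 58.0 CPM, is that of Sham/Air replicate 1, the library that stands apart, and without it the log2 fold change in air was -0.46. With the GC offsets the values were -0.37 in benzene and -0.59 in air, and -0.52 in air with offsets and without that library.

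Thra, the receptor with the higher level per length, overlapped between the operations. It ran over 61.2 to 77.3 CPM in TAC/Benzene (median 72.6), 53.9 to 86.6 CPM in TAC/Air (median 74.5), 63.8 to 103 CPM in Sham/Benzene (median 84.5) and 27.8 to 105 CPM in Sham/Air (median 77.7). The lowest value of all was again that of Sham/Air replicate 1. The log2 fold change with TAC was -0.24 ± 0.19 in benzene and -0.07 ± 0.19 in air (SE), neither clearly larger than its error. Without Sham/Air replicate 1 the value in air was -0.24, and without Sham/Air replicate 4 it was 0.04.

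Among the members Thra has the highest GC content, 59.8% for its longest transcript. That of Thrb is 44.1%, the lowest after the 43.4% of Dio2, with a median of 49.7% over tested genes. With the offsets Thra had 60.0 to 65.2 CPM in TAC/Benzene, against 71.8 to 96.0 CPM in Sham/Benzene. In air it then had 63.1 to 74.5 CPM after TAC, against 76.7 to 112 CPM after sham, so that the groups no longer overlapped in either comparison. With these offsets 9.50% of tested genes in benzene and 7.39% in air were entirely lower in TAC. The log2 fold change of Thra with offsets was -0.36 in benzene and -0.29 in air, and -0.24 in air without Sham/Air replicate 1. Among the libraries with a positive GC correlation the mean log2 difference of Thra was -0.35 in benzene and -0.18 in air, and among those with a negative one it was -0.18 and 0.24. For Thrb the same splits gave -0.28 and -0.51 among positive libraries, and -0.43 and -0.80 among negative ones. The direction of Thrb was thus the same in each split, and that of Thra was not. The opposite value of Thra, 0.24, includes Sham/Air replicate 1 at 27.8 CPM. The other Sham/Air libraries of that split held 72.0 and 70.9 CPM, above the 53.9, 63.3 and 69.1 CPM of TAC/Air.

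**Figure D3:**
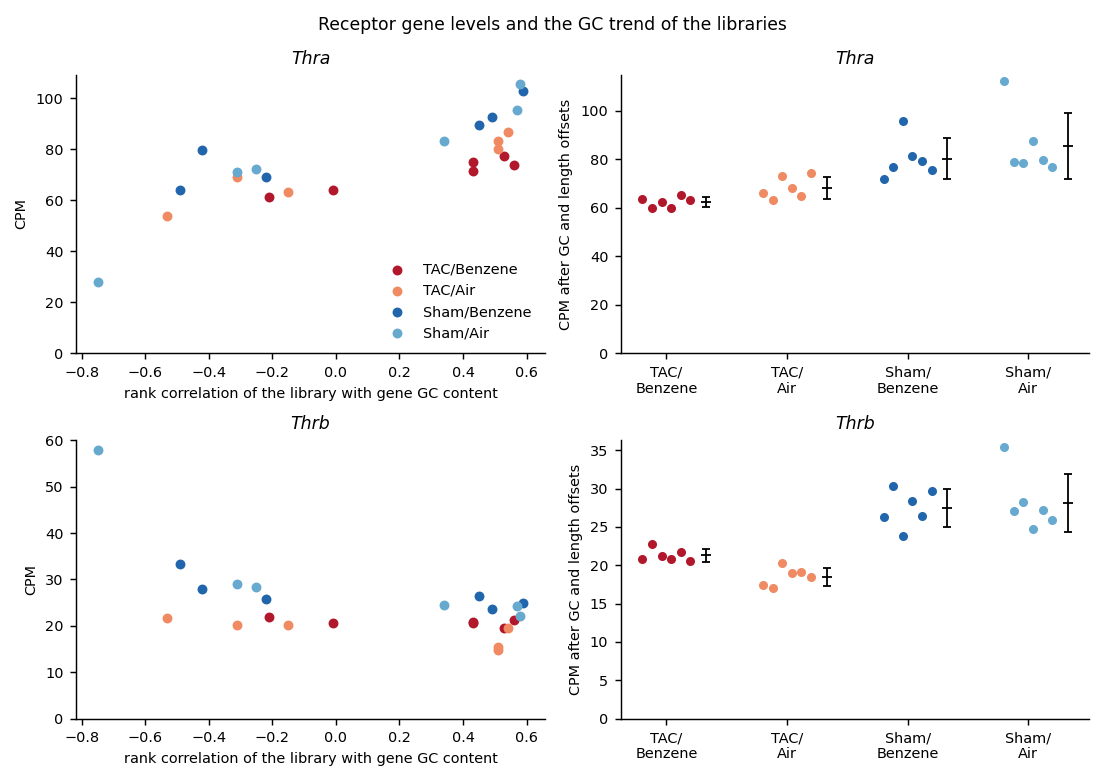
Left, level of Thra and Thrb in each library, in CPM, against that library's rank correlation with gene GC content. Right, the levels after GC and length offsets, with the mean and SD as black marks. On the left Sham/Air replicate 1 lies at -0.75 with 27.8 CPM of Thra and 58.0 CPM of Thrb, and on the right the TAC and sham libraries of the same exposure do not overlap for Thra.

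The annotated exons of Thra share 263 bases with those of Nr1d1, which encodes a circadian nuclear receptor on the other strand. No source used here states whether counting used strand, so reads over those bases cannot be told apart. Nr1d1 itself had 98.0 to 117 CPM in TAC/Benzene and 64.1 to 152 CPM in Sham/Benzene, with a log2 fold change of 0.03 ± 0.14 (adjusted p = 0.955, edgeR). In air it had 117 to 132 CPM after TAC and 74.2 to 97.8 CPM after sham, and it rose by 0.48 ± 0.14 on the log2 scale (adjusted p = 0.0206, edgeR). That call was lost with the GC offsets (adjusted p = 0.514, and 0.0621 when Sham/Air replicate 1 was also left out). The level of Thra per length was 7.21 times that of Thrb in TAC/Benzene, 8.32 times in TAC/Air, 6.54 times in Sham/Benzene and 5.22 times in Sham/Air.

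Slc16a10 encodes MCT10, a carrier of aromatic amino acids that also moves T3 and T4 through the plasma membrane. It was lower in TAC hearts, with 21.2 to 26.8 CPM in TAC/Benzene (median 22.8), against 30.4 to 39.4 CPM in Sham/Benzene (median 33.3). In air it had 22.7 to 27.5 CPM after TAC (median 23.5), against 31.7 to 41.8 CPM after sham (median 33.8). The TAC and sham libraries did not overlap under either exposure. The mean was 23.3 ± 1.92 CPM in TAC/Benzene and 33.7 ± 3.18 CPM in Sham/Benzene, and 24.2 ± 1.95 CPM in TAC/Air and 34.5 ± 3.73 CPM in Sham/Air (SD, n = 6 each). The log2 fold change was -0.53 ± 0.09 in benzene and -0.51 ± 0.09 in air (SE). Its GC content of 47.3% is near the median, and the mean log2 differences within the positive and negative GC libraries were -0.46 and -0.58 in benzene and -0.48 and -0.53 in air.

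The other tested carriers differed among themselves. Slc7a5, an amino acid transporter subunit that also carries thyroid hormone, rose with TAC, by 0.98 ± 0.16 on the log2 scale in benzene (adjusted p = 5.91e-05, edgeR) and by 0.58 ± 0.16 in air (adjusted p = 0.0145, edgeR). The air call was lost when only the 2 air groups were fitted (adjusted p = 0.0841). Slco1a4, an organic anion carrier, had log2 fold changes of -1.18 ± 0.37 in benzene and -0.87 ± 0.36 in air (SE). It held 0.340 to 0.980 CPM in TAC/Benzene, 41 counts in all, against 0.876 to 2.53 CPM in Sham/Benzene. Its median was above the filter of 0.873 CPM in both sham groups and below it in both TAC groups. It thus passed the filter mainly through the groups in which it is high, so no p is given for it. It is among the list genes counted as called, in benzene only, and that call was lost when any 1 of 6 libraries was left out. Of 5 tested carriers on the list, 1 rose and 1 fell in benzene, and 1 rose and 0 fell in air.

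Thrsp (Spot 14), a nuclear protein of lipogenic tissues that T3 induces in rat liver, was lower on average in TAC hearts with overlapping groups. It ran over 24.8 to 31.6 CPM in TAC/Benzene (median 28.8), against 25.2 to 44.1 CPM in Sham/Benzene (median 37.2). In air it ran over 23.6 to 34.7 CPM after TAC (median 28.1), against 26.4 to 43.3 CPM after sham (median 39.3). In each sham group 1 library lay among the TAC values, Sham/Benzene replicate 3 at 25.2 CPM and Sham/Air replicate 1 at 26.4 CPM, and the others lay above the highest TAC library of the same exposure. The log2 fold change was -0.37 ± 0.13 in benzene and -0.42 ± 0.13 in air (SE). With the GC offsets Sham/Air replicate 1 moved to 40.3 CPM, and Thrsp had 24.8 to 30.6 CPM in TAC/Air, against 36.8 to 42.0 CPM in Sham/Air, without overlap. In benzene it then had 25.9 to 30.8 CPM after TAC, against 28.8 to 42.7 CPM after sham, with overlap. The log2 fold change with offsets was -0.37 in benzene and -0.50 in air.

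Thrsp is expressed strongly in fat, so fat and liver markers were looked at beside it. The summed level of 6 adipocyte markers, of which 2 were tested, was 1.24 to 2.90 CPM in TAC/Benzene, 3.62 to 5.34 CPM in TAC/Air, 1.20 to 9.80 CPM in Sham/Benzene and 2.60 to 6.72 CPM in Sham/Air. Of 4 brown fat markers, Ucp1, the defining gene, had 3 counts in TAC/Benzene, 0 in TAC/Air, 0 in Sham/Benzene and 1 in Sham/Air. Elovl3 had 8, 2, 4 and 0 counts in the same order. Cidea averaged 33.5, 29.6, 26.5 and 25.4 CPM, and Cox8b averaged 429, 402, 528 and 501 CPM. The sum of the 4 ran over 269 to 578 CPM in TAC/Benzene and 137 to 693 CPM in TAC/Air. It ran over 254 to 793 CPM in Sham/Benzene and 147 to 805 CPM in Sham/Air. The summed level of 6 hepatocyte markers was at most 2.31 CPM in TAC/Benzene, 1.89 CPM in TAC/Air and 2.60 CPM in Sham/Air, and reached 118 CPM in Sham/Benzene replicate 1, the Sham/Benzene library with the highest Thrsp level, 44.1 CPM. The next highest hepatocyte sum, 32.7 CPM, was that of Sham/Benzene replicate 3, the library with the lowest Thrsp level of its group, 25.2 CPM. The part of these markers in the Thrsp difference was not tested.

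Among lipogenic genes, the setting in which Thrsp is known, there was no common direction. Of 14 listed and tested genes, 1 rose and 1 fell with TAC in benzene (median log2 fold change -0.04), and 2 rose and 0 fell in air (median 0.03). Over all 13565 tested genes that are no members the medians were 0 and -0.01. Scd2, a stearoyl-CoA desaturase, rose in both, by 0.32 ± 0.08 on the log2 scale in benzene (adjusted p = 0.00533, edgeR) and by 0.39 ± 0.08 in air (adjusted p = 0.00102, edgeR). Scd1, the desaturase of liver and fat, rose in air (0.50 ± 0.10, adjusted p = 0.000784), with 0.23 ± 0.10 in benzene (adjusted p = 0.136). Acacb, the acetyl-CoA carboxylase at mitochondria of heart and muscle, was called lower in benzene at -0.33 ± 0.11 (adjusted p = 0.0469, edgeR), a call that leaving out any 1 of 21 libraries ended. Mid1ip1, the paralog of Thrsp, had log2 fold changes of -0.28 ± 0.18 in benzene (adjusted p = 0.360, edgeR) and -0.46 ± 0.18 in air (adjusted p = 0.0925, edgeR). Both became calls with the GC offsets, at adjusted p of 0.00228 or less.

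The other genes of hormone action were taken as lists of 79 genes, of which 66 were tested. Of these 66, 6 rose and 11 fell with TAC in benzene, which is 25.8%, while 16.6% of all tested genes were called. In air 6 rose and 12 fell, which is 27.3%, while 16.2% of all tested genes were called. Hr stands on 2 of the lists and is counted once here. With the GC offsets the counts were 29 in benzene and 32 in air, and without Sham/Air replicate 1 they were 29 and 27. These lists were drawn up with earlier results of these data known, so the shares are a description.

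**Figure D4:**
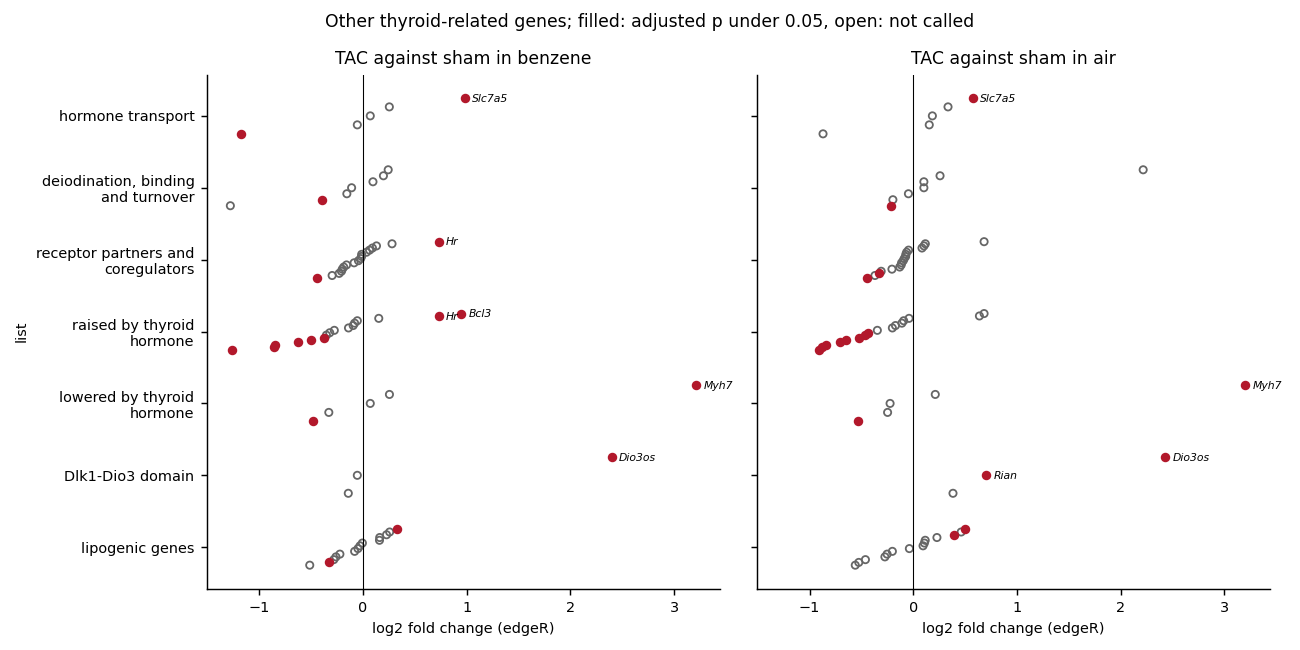
Log2 fold change with TAC of each tested list gene, in benzene and in air, 1 row per list, with filled points for genes that passed the adjusted p threshold of 0.05. Myh7 and Dio3os lie farthest to the right, and most filled points among genes raised by thyroid hormone lie below 0.

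Of the 16 tested genes that thyroid hormone is known to raise in rodent heart or other tissues, 2 rose and 6 fell in benzene (median log2 fold change -0.30), and 0 rose and 8 fell in air (median -0.39). Atp2a2, the calcium pump of the sarcoplasmic reticulum, had 11339 to 11792 CPM in TAC/Benzene, against 14402 to 17555 CPM in Sham/Benzene, and it fell by 0.50 ± 0.08 on the log2 scale (adjusted p = 4.03e-05, edgeR). In air it fell by 0.65 ± 0.08 (adjusted p = 9.77e-07, edgeR). Kcnd2, a potassium channel subunit, had 13.6 to 18.8 CPM in TAC/Benzene, against 24.4 to 35.7 CPM in Sham/Benzene, and fell by 0.86 ± 0.11 in benzene (adjusted p = 2.23e-06) and by 0.84 ± 0.11 in air (adjusted p = 4.83e-06, edgeR). Ucp3, a mitochondrial carrier, had 15.4 to 21.4 CPM in TAC/Benzene, against 20.6 to 60.7 CPM in Sham/Benzene, and fell by 1.26 ± 0.18 in benzene (adjusted p = 9.25e-06) and by 0.91 ± 0.18 in air (adjusted p = 0.000782, edgeR). Myh6, the fast cardiac myosin heavy chain, fell by 0.62 ± 0.13 in benzene (adjusted p = 0.000793) and by 0.88 ± 0.13 in air (adjusted p = 1.51e-05, edgeR).

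Some hormone-raised genes went the other way or were uncertain. Hr, a corepressor that T3 induces in rat brain, had 28.1 to 39.9 CPM in TAC/Benzene, against 14.1 to 24.5 CPM in Sham/Benzene, and rose by 0.73 ± 0.25 on the log2 scale (adjusted p = 0.0419, edgeR). In air it had 22.1 to 35.8 CPM after TAC and 1.99 to 24.8 CPM after sham, with a log2 fold change of 0.68 ± 0.25 (adjusted p = 0.0636, edgeR). The benzene call of Hr ended when any 1 of 14 libraries was left out, and the air value passed in 3 such fits, the one without Sham/Air replicate 1 among them. The air value of Hr also passed with DESeq2 and, in edgeR, with either offset set, at adjusted p of 0.000119 to 0.0383. Bcl3, a transcriptional coregulator, had 8.66 to 10.1 CPM in TAC/Benzene, against 2.98 to 5.89 CPM in Sham/Benzene, and rose by 0.95 ± 0.26 (adjusted p = 0.0125, edgeR), with 0.64 ± 0.28 in air (adjusted p = 0.139). Klf9, a transcription factor induced by T3, fell in air by 0.46 ± 0.14 (adjusted p = 0.0222, edgeR), with -0.28 ± 0.14 in benzene (adjusted p = 0.208). Its air call was lost when only the 2 air groups were fitted (adjusted p = 0.149), and without Sham/Air replicate 1 its air value was -0.24. In benzene Klf9 had 170 to 188 CPM after TAC and 196 to 243 CPM after sham, without overlap. It was called lower there with only those 2 groups fitted and with either offset set, at adjusted p of 2.11e-06 to 0.0308 (edgeR). Without Sham/Air replicate 1 the benzene value also passed (adjusted p = 0.00184, edgeR).

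Of the 5 genes that thyroid hormone is known to lower in rodent heart, 1 rose and 1 fell with TAC under each exposure. Myh7, the slow myosin heavy chain, rose by 3.21 ± 0.12 in benzene (adjusted p = 3.09e-16) and by 3.20 ± 0.12 in air (adjusted p = 2.93e-16, edgeR). Pln, the inhibitor of the calcium pump, fell by 0.48 ± 0.14 in benzene (adjusted p = 0.0152) and by 0.53 ± 0.14 in air (adjusted p = 0.00715, edgeR). The air call of Pln was lost when only the 2 air groups were fitted (adjusted p = 0.0648).

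Among 18 partners and coregulators of the receptors, 1 rose and 1 fell in benzene and 0 rose and 2 fell in air. Rxrg, a retinoid X receptor, had 65.5 to 73.4 CPM in TAC/Benzene, against 82.9 to 95.5 CPM in Sham/Benzene. It fell by 0.44 ± 0.07 on the log2 scale in benzene (adjusted p = 7.74e-05) and by 0.44 ± 0.07 in air (adjusted p = 9.43e-05, edgeR). Ncoa1, a coactivator, fell in air by 0.33 ± 0.11 (adjusted p = 0.0305, edgeR), and leaving out any 1 of 4 libraries ended that call. Among 7 tested genes for the binding of the hormone and the turnover of deiodinases, 0 rose and 1 fell under each exposure. Secisbp2, which selenoproteins such as the deiodinases need for their synthesis, fell in benzene by 0.39 ± 0.11 (adjusted p = 0.00843, edgeR), with -0.05 ± 0.11 in air (adjusted p = 0.816). Marchf6, a ubiquitin ligase known to mark type 2 deiodinase for degradation, fell in air by 0.22 ± 0.07 (adjusted p = 0.0316, edgeR), a call that leaving out any 1 of 5 libraries ended.

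Benzene against air left the members' levels overlapping in both operations. In sham mice 0 of 6 members, and 0.280% of tested genes, were without overlap between Sham/Benzene and Sham/Air. In TAC mice 0 of 6 members, and 2.70% of tested genes, were without overlap between TAC/Benzene and TAC/Air. The log2 fold change of Dio2 was 0.40 ± 0.19 in sham mice and 0.13 ± 0.15 in TAC mice (SE). Without Sham/Benzene replicate 3 the sham value was 0.25. For Dio3 it was -0.58 ± 0.82 in sham mice, where both groups together hold 13 counts, and -0.41 ± 0.34 in TAC mice. Without Sham/Air replicate 4 the sham value of Dio3 turned to 0.67.

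The other members moved by 0.17 or less in size with benzene. Thra had 0.12 ± 0.19 in sham mice and -0.05 ± 0.19 in TAC mice, and Thrb had -0.17 ± 0.17 and 0.16 ± 0.17 (SE). Both sham values changed sign without Sham/Air replicate 1, to -0.04 for Thra and 0.08 for Thrb. Slc16a10 had -0.03 ± 0.09 in sham mice and -0.06 ± 0.09 in TAC mice, and Thrsp had -0.07 ± 0.13 and -0.01 ± 0.13 (SE). The difference between the TAC effect in benzene and that in air was -0.28 ± 0.24 for Dio2, 0.17 ± 0.73 for Dio3, -0.16 ± 0.27 for Thra, 0.33 ± 0.24 for Thrb, -0.03 ± 0.12 for Slc16a10 and 0.05 ± 0.18 for Thrsp on the log2 scale (SE). None of these is as large as 2 standard errors. Without Sham/Air replicate 1 the value was 0.08 for Thrb and 0.00 for Thra, and without Sham/Benzene replicate 3 it was -0.13 for Dio2.

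The separation of Dio2 and Thrb between TAC/Benzene and TAC/Air changed with the GC offsets. With them Dio2 had 66.7 to 73.8 CPM in TAC/Benzene, against 61.5 to 65.3 CPM in TAC/Air, so the groups no longer overlapped, with a log2 fold change of 0.17. Thrb then had 20.5 to 22.8 CPM in TAC/Benzene, against 17.0 to 20.2 CPM in TAC/Air, also without overlap, with a log2 fold change of 0.20. With offsets 2.43% of tested genes were entirely higher in TAC/Benzene. Among the TAC libraries with a positive GC correlation, 4 in benzene and 3 in air, the mean of Dio2 was 66.1 CPM in TAC/Benzene and 56.1 CPM in TAC/Air, without overlap. Among those with a negative one, 2 in benzene and 3 in air, it was 74.8 CPM and 70.4 CPM, with overlap.

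None of the 66 tested list genes passed in edgeR for benzene against air in sham mice, in TAC mice or for the difference of the TAC effects. At an unadjusted p under 0.05 there were 6, 4 and 4, and DESeq2 called 1, 0 and 0. Of all tested genes edgeR called 0.0221% in sham mice, 0.582% in TAC mice and 0.169% for the difference. The 1 gene of DESeq2 is Ttr, a thyroxine carrier of blood plasma made in liver. It had 0.239 to 11.1 CPM in Sham/Benzene, against 0 to 0.488 CPM in Sham/Air, and at most 0.780 CPM in TAC/Air. Every air library was thus below the filter of 0.873 CPM, and Ttr entered the fit through the benzene groups. No p is therefore given for it, although it is counted as called by DESeq2. The log2 fold change of Ttr in sham mice was 4.20 ± 0.91 in edgeR (SE) and 4.31 in DESeq2. The highest Ttr level is that of Sham/Benzene replicate 1, the library with the highest hepatocyte marker sum. Without that library the edgeR value was 2.99. Meg3 had 0.64 ± 0.19 in sham mice (adjusted p = 0.487, edgeR), and Nr1d1 had -0.24 ± 0.14 in TAC mice (adjusted p = 0.988, edgeR). Its levels, 98.0 to 117.3 CPM in TAC/Benzene and 117.4 to 132 CPM in TAC/Air, did not overlap, and with only these 2 groups fitted it was called lower (adjusted p = 0.0391).

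The genes whose levels followed those of the deiodinases most closely were named by the root mean square difference of centred log2 CPM over 24 libraries, a measure that reflects size as well as direction. It was computed for the members whose group means span more than 1 on the log2 scale, which are Dio2 at 4.02 and Dio3 at 2.48. Nearest to Dio2 were Thbs4 at 0.326, Postn at 0.353, Cilp at 0.373, Col12a1 at 0.378 and Atp6v0a4 at 0.383. The first 4 encode extracellular matrix proteins and the last a subunit of the vacuolar proton pump. Postn averaged 1119 CPM in TAC/Benzene, 979 CPM in TAC/Air, 93.6 CPM in Sham/Benzene and 110.1 CPM in Sham/Air. Nearest to Dio3 were Meox1 at 0.492, a homeobox factor, Mfap4 at 0.525, Frzb at 0.528, Loxl3 at 0.539 and Adamtsl2 at 0.540. The log2 CPM of this measure adds a prior count of 2, which shrinks differences between low counts. For Dio3 the span of 2.48 is thus below the fitted log2 fold changes of 3.26 in benzene and 3.10 in air. The genes named beside Dio3 are near to that shrunken size. Meox1 averaged 72.4 CPM in TAC/Benzene, 70.5 CPM in TAC/Air, 16.8 CPM in Sham/Benzene and 15.7 CPM in Sham/Air, a level far above that of Dio3 on the same CPM scale.

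**Figure D5:**
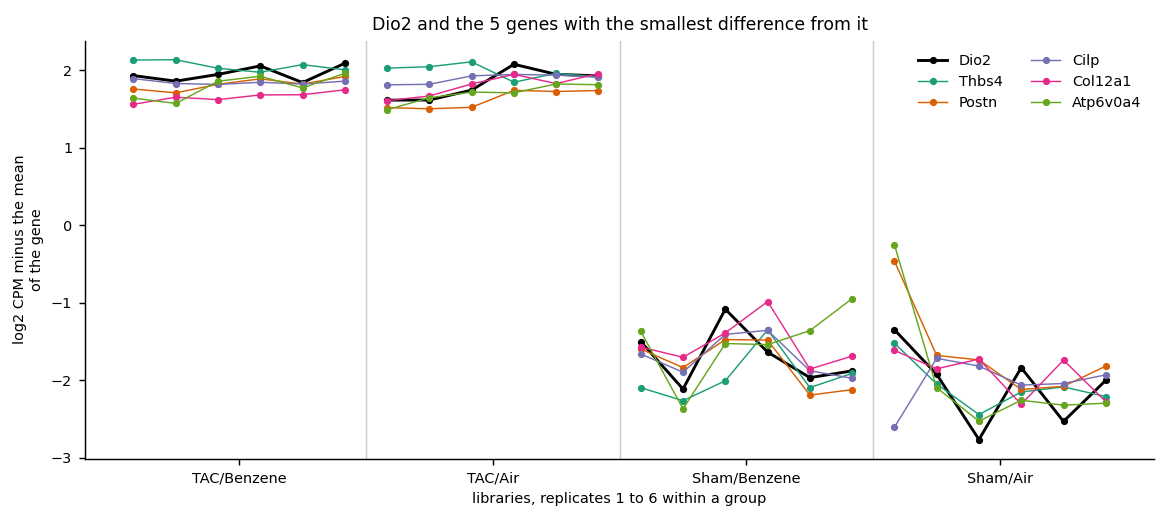
Centred log2 CPM of Dio2 and of the 5 genes nearest to it, over the 24 libraries ordered by group. All 6 lines are high in the 12 TAC libraries and low in the 12 sham libraries.

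Cell type markers moved with the operation as well. The sum of 6 fibroblast markers was 2669 to 3199 CPM in TAC/Benzene, 2793 to 3577 CPM in TAC/Air, 1193 to 1569 CPM in Sham/Benzene and 1162 to 3107 CPM in Sham/Air, where the highest value is that of replicate 1. Of these 6, 3 were called higher with TAC under each exposure, and none was at 0 in any group. Postn, one of the genes nearest to Dio2, had the largest rise of the 6. It averaged 1119 CPM in TAC/Benzene, 979 CPM in TAC/Air, 93.6 CPM in Sham/Benzene and 110.1 CPM in Sham/Air. Pdgfra averaged 67.8 CPM in TAC/Benzene, 79.4 CPM in TAC/Air, 60.9 CPM in Sham/Benzene and 70.6 CPM in Sham/Air. Tcf21 averaged 11.5, 11.6, 8.74 and 8.67 CPM in the same order. The sum of 6 cardiomyocyte markers was 30526 to 40145 CPM in TAC/Benzene and 28274 to 40839 CPM in TAC/Air. It was 44181 to 57805 CPM in Sham/Benzene and 48573 to 73353 CPM in Sham/Air. With TAC, 4 of 6 were called lower in benzene and 5 of 6 in air. The largest part of the sum is Myh6, which is also on the list of hormone-raised genes. Myh6 averaged 15938 CPM in TAC/Benzene, 15541 CPM in TAC/Air, 24576 CPM in Sham/Benzene and 28582 CPM in Sham/Air. Actn2 averaged 2339.9 CPM in TAC/Benzene and 2066.5 CPM in Sham/Benzene, and 2080.5 CPM in TAC/Air and 2240.3 CPM in Sham/Air. Tnnt2, Tnni3, Ryr2 and Myl2 averaged lower in TAC under both exposures. Of 4 neutrophil markers, 4 were called higher with TAC in benzene and 0 in air, and 4 were called higher with benzene in TAC mice. Their sum was 34.6 to 42.9 CPM in TAC/Benzene, 6.42 to 11.5 CPM in TAC/Air, 5.09 to 16.1 CPM in Sham/Benzene and 7.17 to 12.2 CPM in Sham/Air. The sum of 3 Schwann cell markers was 3.54 to 6.21 CPM in TAC/Benzene, 4.42 to 7.15 CPM in TAC/Air, 8.04 to 12.6 CPM in Sham/Benzene and 8.12 to 11.6 CPM in Sham/Air, with 2 of 2 tested called lower in benzene and 1 of 2 in air. The sum of 5 lung epithelium markers was at most 0.943 CPM in TAC/Benzene, 0.856 CPM in TAC/Air and 2.15 CPM in Sham/Benzene, and 6.82 to 10.8 CPM in Sham/Air. In bulk tissue fewer cells of a type and less RNA per cell cannot be told apart, and the part of these markers in the differences of the members was not tested. Among thyroid follicle markers, Tg averaged 1.62 CPM in TAC/Benzene, 1.86 CPM in TAC/Air, 2.56 CPM in Sham/Benzene and 1.94 CPM in Sham/Air.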

How the data were processed

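Per the labels' protocols, poly-A RNA of left ventricle and septum was sequenced in 24 libraries. The authors deposited 1 table of raw counts per gene. Tools listed in the submitters' processing notes are STAR, FastQC 0.11.9 and DESeq2, with mm9 as the build. No source used here gives the counting tool, its strand setting or the annotation.

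The counts were analysed as deposited with edgeR 4.0.16 (R 4.3.3, limma 3.58.1). The filter kept 13571 genes with a count equivalent of 10 in the smallest group and a total of 15. Libraries were scaled by the trimmed mean of M-values, 4 groups of 6 libraries were fitted together, and 5 comparisons were tested by the quasi-likelihood test, with Benjamini-Hochberg adjustment over all genes and a threshold of 0.05. Standard errors are the log2 fold change over the square root of F. DESeq2 1.42.0, no filter, a filter at a mean of 1 CPM, fits of the 2 groups alone, a replicate block and leaving out each library were alternatives. GC and length offsets (loess, span 0.5) were added after the data were seen. The fits were tested on simulated data. Levels per kilobase use GENCODE exon lengths, and promoter sequences are RefSeq's, matched by symbol for 5 of 6 members.

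The 6 members and the lists were chosen with earlier results of these data known, and no p-value is given for a member. Named are the 6 members, of each list up to 4 genes with the smallest p in each comparison where they passed, a few genes always (Dio1, Ttr, Hr, Klf9, Myh6, Myh7, Atp2a2, Pln, Mid1ip1, Nr1d1, Dlk1 and Meg3), and the 5 nearest genes of each member whose group means span more than 1. Bcl3 was named after its value was seen, and some single cell type markers are named beside their sums. In the benzene comparisons, where none passed, Ttr, Meg3 and Nr1d1 are named, and so are the genes that an alternative called. Crym, also on the fixed list of names, was not tested, and results for some list genes are not reported here. The upper level given for Dio1 covers counting error only, while the standard errors of the fits use the spread between libraries.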

Additional observations from a re-analysis of the deposited data

Results flagged for a closer look

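Of 124 gene-by-group sets of 6 values, 18 had 1 library far from the others, where chance flags about 1 in 20 groups. For members this was 3 of 24, all in Sham/Air replicate 1: Thrb at 58.0 CPM (next 29.0), Slc16a10 at 41.8 CPM (next 34.4) and Thrsp at 26.4 CPM (next 38.4). The same library was high for Klf9 at 452 CPM, Myh6 at 42092 CPM, Myh7 at 424 CPM, Atp2a2 at 23282 CPM, Pln at 16082 CPM and Kcnd2 at 43.5 CPM, and low for Hr at 1.99 CPM, Rxrg at 69.0 CPM and Acacb at 201 CPM. The values in the other libraries were as follows. Ttr stood at 11.1 CPM in Sham/Benzene replicate 1, against 3.24 CPM in the next library. Rxrg stood at 73.4 CPM in TAC/Benzene replicate 4 and at 82.9 CPM in Sham/Benzene replicate 2. Acacb stood at 258 CPM in TAC/Benzene replicate 4, Dio3os at 0.927 CPM in TAC/Benzene replicate 5, and Ncoa1 at 61.5 CPM in Sham/Benzene replicate 3. Sham/Air replicate 1 has the lowest total count and the lowest GC correlation, and the part of either in these values was not tested.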

How the results depend on the processing

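The cause of the shifts given here was not tested. The TAC log2 fold changes of Dio2, Dio3, Thrb, Slc16a10 and Thrsp kept their direction under every alternative run, and 11 of the 30 member values, each at most 0.17 in size or from Dio3, changed sign in at least 1, among them Thra with TAC in air. Without 1 library, Dio3 ranged over 2.74 to 4.34 with TAC in air, -0.93 to 0.67 for benzene in sham mice and -1.08 to 0.52 for the interaction. For TAC in benzene the genes called numbered 2257, and 3415 when only these 2 groups were fitted, 3633 with GC offsets, 4883 with offsets and no Sham/Air replicate 1, and 1918 to 3685 without 1 library. For TAC in air they numbered 2193, and 1300, 3743 and 4342 under the first 3 of these settings. List genes called numbered 17 in benzene (29 and 37 with the offsets, 14 to 29 without 1 library) and 18 in air (32 and 33). For benzene in TAC mice 79 genes were called, and 171 by DESeq2, 274 with only the 2 groups, 46 with the replicate block, 230 and 601 with the offsets, and 52 to 231 without 1 library. List genes there numbered 0, then 1 (Bcl3) with only the 2 groups, and 0 to 1 without 1 library (Mlxipl, without Sham/Air replicate 1). With the offsets they numbered 2 (Bcl3 and Mlxipl), and 4 when Sham/Air replicate 1 was also left out (Bcl3, Mlxipl, Atp1b1 and Gpam). For benzene in sham mice 3 genes were called, and 28 by DESeq2, 1 without a filter, 1 with only the 2 groups, 11 and 33 with the offsets, and 1 to 5 without 1 library, with 0 list genes and 1 by DESeq2 (Ttr). For the interaction 23 genes were called, and 57 by DESeq2, 14 with the block, 57 and 179 with the offsets, and 15 to 49 without 1 library, with 0 list genes and 1 (Ppargc1a) with offsets and no Sham/Air replicate 1. Nr1d1 with TAC in benzene, near 0 at 0.03, turned to -0.078 with either offset set and ranged over -0.083 to 0.15 without 1 library. The replicate numbers of the labels did not pair the libraries by the measure used, a correlation of deviations over 0.1 in every pair: it was over 0.1 in 5 of 6 pairs of TAC/Benzene with TAC/Air (-0.02 to 0.34) and 4 of 6 of Sham/Benzene with Sham/Air (-0.03 to 0.47), and in 0 of 6 between TAC and sham in benzene (-0.34 to 0.06) and in air (-0.53 to -0.02). Of 12 libraries, 5 in TAC and 3 in sham correlated best with their own number. The GC trend also differed by replicate number, as given above, and its part in these correlations was not tested. The block moved counts of calls by over 1.5 times only for benzene in TAC mice and the interaction. With the block the air calls of Klf9 and Marchf6 and the benzene calls of Acacb and Hr were lost, at adjusted p of 0.0543 to 0.0750 (edgeR). The benzene call of Slco1a4 was lost as well. Dio3 and Ttr have no value with the filter at a mean of 1 CPM. Depth limits Dio3 and Dio3os, which hold 22 and 25 counts or fewer in each library.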
